A study of Mus musculus with 4 samples.

Results

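The genes described here are 10 autophagy genes of the mouse: Ulk1, Becn1, Atg5, Atg7, Map1lc3a, Map1lc3b, Gabarapl1, Sqstm1, Bnip3 and Trp53inp2. They were chosen by name, with earlier results of these data known, and each name matched 1 of the 45706 genes in the deposited table. Autophagy encloses cytoplasm in a double membrane, the autophagosome, and delivers it to the lysosome for breakdown. The ULK1 kinase starts the process, the BECN1 lipid kinase complex marks the membrane, and ATG7 and ATG5 help to attach proteins of the ATG8 family (LC3 and GABARAP) to it, where cargo receptors bind. In fat tissue autophagy is known for its part in adipocyte differentiation and in the turnover of mitochondria.

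RNA was sequenced from the gonadal fat pad, a white adipose tissue called gWAT. All 4 mice were C57B6/N by the labels (C57BL/6 in the study's methods) were male by the study's methods, and had been on HFD32, a high-fat diet, for 2 months. The HFD group held 2 mice, and the HFD+Cana group held 2 mice whose food also contained canagliflozin at 0.03% by weight for 7 days. Canagliflozin blocks the kidney glucose transporter SGLT2, and the comparison asks how gWAT RNA differs after its intake. The labels give no age, and no group on normal chow was analysed here.

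Levels are TPM, which corrects a gene's estimated reads for transcript length and scales them to 1000000 per mouse, so levels of different genes can be compared. TPM keeps no depth, so the depth of each mouse is unknown and only the spread within each pair of mice speaks for the precision. Log2 fold changes are of TPM + 1, HFD+Cana over HFD, from limma over the 13788 genes that averaged 1 TPM or more. This scale understates the change of low genes, and adjusted p-values are Benjamini-Hochberg values over those genes. Over all genes tested the median log2 fold change was 0.02. The 10 adipocyte markers were abundant in every mouse and summed to 46874 and 50606 TPM in the HFD mice and 46942 and 57574 TPM in the treated mice. All 9 hepatocyte markers were higher in both HFD+Cana mice (summed TPM 5.06 and 7.80 in HFD, 116 and 152 in HFD+Cana), and 5 of the 6 genes that passed the adjusted threshold in the whole table were among them. HFD replicate 2 stood apart by fast skeletal muscle genes, among them Ckm at 11.4 TPM against 0 in HFD replicate 1 and 0.22 and 0.025 in HFD+Cana.

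Trp53inp2 was the member with the largest difference between the groups. Its mean was 46.1% lower in HFD+Cana than in HFD. Map1lc3a was 20.2% lower, and the means of the other 8 members lay within 9.13% of those in HFD. None of the 10 passed the adjusted threshold of 0.05 in limma. Of all genes tested, 0.0435% passed as higher and 0% as lower. At an unadjusted p under 0.05, 2 of the 10 members were lower, beside 5.45% of all genes tested, and 0 were higher, beside 5.32%. Both HFD+Cana mice lay below both HFD mice in 4 of the 10 members (Trp53inp2, Map1lc3a, Becn1 and Atg5), beside 19.8% of all genes. Both lay above in 0 of the 10, beside 24.3%. Since the members were chosen with earlier results of these data known, these counts are a description only. The median log2 fold change of the 10 was -0.08. In bulk tissue, fewer cells of a type and less RNA per cell cannot be told apart, and RNA levels do not measure autophagic flux.

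**Figure D1:**
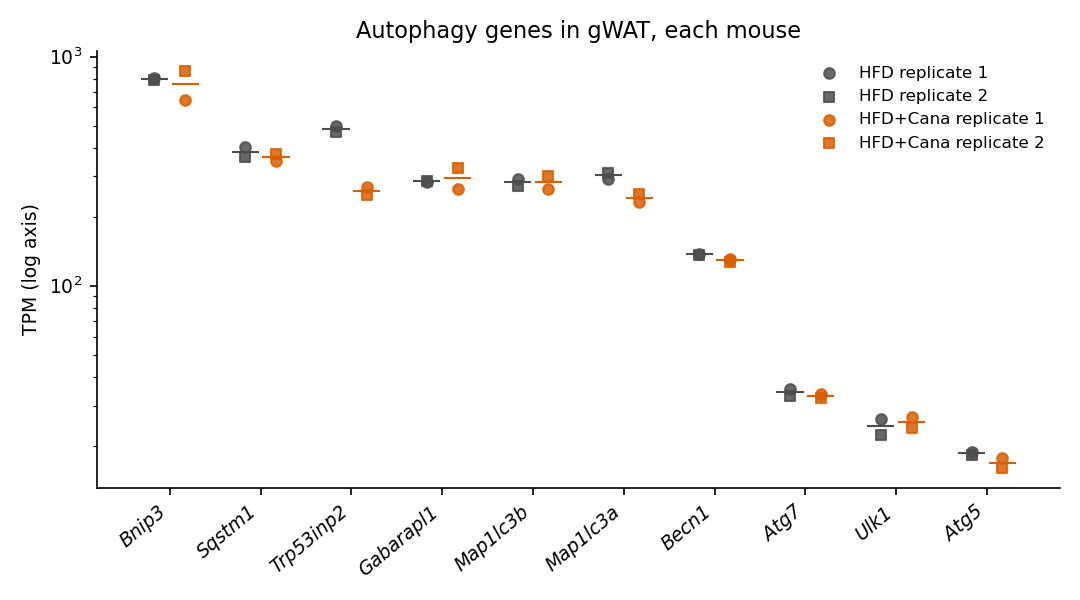
TPM (log axis) of the 10 autophagy genes in each of the 4 mice, ordered by mean level; grey symbols are HFD, orange symbols HFD+Cana, circles replicate 1, squares replicate 2 and lines the group means. Trp53inp2 lies at 468 and 496 TPM in HFD and at 248 and 271 TPM in HFD+Cana, while the symbols of most other genes lie close together.

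The promoter of Trp53inp2 is shown first because its RNA differed most. Windows from 250 bases before to 50 bases after the RefSeq start (GRCm38.p6, the build of the files) were at hand for 8 of the 10 members, without Map1lc3a and Becn1. They were searched for CACGTG, the E-box word, which is its own reverse complement, and for GTAAACA, a word bound by FoxO factors, on both strands. CACGTG was in 3 of the 8 windows (Atg5, Atg7 and Bnip3), and 7.15% of all 32851 windows of this length hold it. GTAAACA was in 0 of the 8, and 3.65% of all windows hold it. TGACGTCA, the cAMP response element word, was looked up only after the Trp53inp2 sequence had been read. It was in 2 of the 8 windows (Trp53inp2 and Atg5), and 1.79% of all windows hold it. The words do not overlap in these windows, and a match is a description of the letters only.

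The 250 bases before the RefSeq start of Trp53inp2 lie at chr2:155381606-155381855 on the plus strand, inside the gene as GENCODE bounds it (chr2:155381059-155389850). Capitals mark TGACGTCA, whose first base lies 41 bases before the start.
Trp53inp2: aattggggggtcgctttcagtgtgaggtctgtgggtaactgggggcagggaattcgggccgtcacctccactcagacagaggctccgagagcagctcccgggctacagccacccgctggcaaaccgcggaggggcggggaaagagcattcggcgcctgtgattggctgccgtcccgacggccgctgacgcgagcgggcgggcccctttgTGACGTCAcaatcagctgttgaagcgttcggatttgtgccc
The members with CACGTG are shown for comparison as 40 bases around it, with CACGTG and, in Atg5, TGACGTCA in capitals. They lie at chr10:44268313-44268352 (Atg5, plus strand), chr6:114670952-114670991 (Atg7, plus strand) and chr7:138909587-138909626 (Bnip3, minus strand).
Atg5: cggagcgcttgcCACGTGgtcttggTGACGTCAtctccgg
Atg7: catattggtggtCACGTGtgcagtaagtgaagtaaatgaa
Bnip3: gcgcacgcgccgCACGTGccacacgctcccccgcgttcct
CACGTG begins 14 bases before the start in Atg5, 132 bases before it in Atg7 and 108 bases before it in Bnip3. The Atg7 window, too, lies inside the gene as GENCODE bounds it, far downstream of the first base of the gene. Of the 2 windows with TGACGTCA, one belongs to the member with the largest difference and the other to Atg5, whose log2 fold change was -0.13.

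Trp53inp2 (chr2:155381059-155389850, plus strand) encodes a protein that leaves the nucleus when autophagy is induced and binds LC3 and GABARAP proteins at forming autophagosomes. It is also known as DOR, a coactivator of nuclear hormone receptors. Its level was 496 and 468 TPM without canagliflozin and 271 and 248 TPM with it. Both HFD+Cana mice were far below both HFD mice, and the mice within each group were close. The HFD mean was 482 ± 19.9 TPM and the HFD+Cana mean 260 ± 16.2 TPM (SD, n = 2 mice each). The log2 fold change was -0.89 ± 0.09 (SE), with a 95% interval from -1.14 to -0.64, and limma's adjusted p was 0.14. Its p ranked 33 among 13788 genes, and 6 genes with lower RNA, Trp53inp2 among them, had a p this small or smaller. Of the 1460 genes averaging 100 TPM or more, 13 had a log2 fold change this low or lower, itself included. Its log2 fold change lay between -0.98 and -0.81 under the 15 alternatives run. Its adjusted p in limma ran from 0.0499 to 0.30 under the alternatives that left out no mouse. The lowest came from scaling TPM to the adipocyte markers, which was added after the data had been seen. Of those 10 markers, Cfd was higher in both HFD+Cana mice (1620 and 2445 TPM in HFD, 4838 and 7433 in HFD+Cana). Another 3 were lower in both, and the part of these markers in the scaled values was not tested.

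Map1lc3a (chr2:155276297-155278073, plus strand) encodes LC3A, an ATG8 protein that is joined to lipid in the autophagosome membrane. It was at 294 and 312 TPM in HFD against 232 and 251 with canagliflozin. The groups did not overlap, but the gap between them was smaller than for Trp53inp2. The log2 fold change was -0.33 ± 0.09, with a 95% interval from -0.57 to -0.09 and an adjusted p of 0.36. Of the same 1460 highly expressed genes, 154 had a log2 fold change this low or lower. Without HFD replicate 1, HFD replicate 2 or HFD+Cana replicate 1 the log2 fold change was -0.37, -0.28 or -0.27, and Map1lc3a no longer had an unadjusted p under 0.05.

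**Figure D2:**
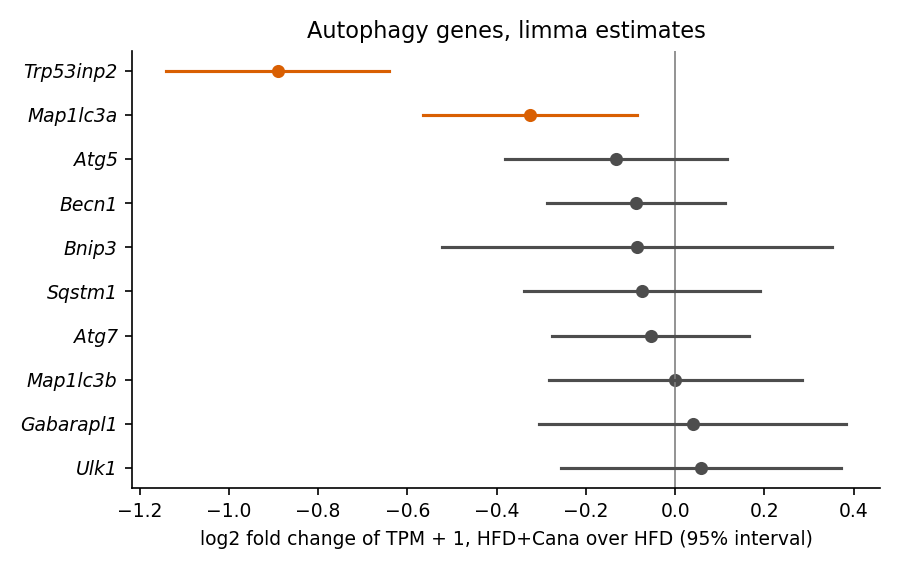
Log2 fold change of TPM + 1 (HFD+Cana over HFD) of the 10 genes from limma with 95% intervals; orange marks an unadjusted p under 0.05. The intervals of Trp53inp2 (-1.14 to -0.64) and Map1lc3a (-0.57 to -0.09) lie below 0, and those of the other 8 include 0.

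The remaining ATG8 genes among the members had group means close to each other. Map1lc3b (chr8:121590361-121598760, plus strand), which encodes LC3B, the ATG8 protein most used as an autophagosome marker, was at 293 and 272 TPM in the HFD mice and 264 and 302 TPM in the treated mice. Gabarapl1 (chr6:129533160-129542346, plus strand), of the GABARAP branch, was at 284 and 288 TPM without canagliflozin and 263 and 328 TPM with it. In both genes the HFD+Cana mice lay on either side of the HFD mice. The 95% interval of the log2 fold change ran from -0.28 to 0.28 for Map1lc3b and from -0.30 to 0.38 for Gabarapl1, and both signs turned under scaling to the adipocyte markers. Leaving out HFD+Cana replicate 2 turned both as well (-0.10 and -0.12), and leaving out HFD replicate 2 turned Map1lc3b (-0.054).

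Because TPM is per length, the ATG8 family could be read as a mixture of 5 genes, whose sum was 1503 and 1437 TPM in HFD against 1388 and 1470 with canagliflozin. Gabarap, which was not among the 10, held the largest share in every mouse (35.1% and 32.3% in HFD, 38.8% and 32.7% in HFD+Cana) at 528, 464, 538 and 481 TPM. Map1lc3a held 19.5% and 21.7% of the sum in HFD and 16.7% and 17.1% in HFD+Cana. Its share was thus lower in both HFD+Cana mice, while the summed level of the family overlapped between the groups. The ratio of Map1lc3a to Map1lc3b was 1.003 and 1.15 in HFD and 0.88 and 0.83 in HFD+Cana. Gabarapl2 held the smallest share, between 6.52% and 7.30%. Trp53inp2 RNA, whose protein binds ATG8 proteins, stood at 0.33 and 0.33 of the summed ATG8 TPM in HFD and at 0.20 and 0.17 in HFD+Cana. These shares and ratios were not tested.

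The members that start and build the autophagosome had intervals that included 0. Ulk1 (chr5:110784488-110810097, minus strand), the initiating kinase, was at 26.3 and 22.4 TPM in the HFD mice and 26.8 and 23.9 TPM in the treated mice. Its groups overlapped, and the sign of its log2 fold change (0.06) turned under scaling to the adipocyte markers. Becn1 (chr11:101285952-101302286, minus strand), the scaffold of the class III PI3-kinase complex, was at 138 and 136 TPM without canagliflozin and 131 and 127 TPM with it. Both HFD+Cana mice were lower, by 5.91% in the mean, and the log2 fold change of -0.09 had a 95% interval from -0.29 to 0.11.

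Atg7 (chr6:114643097-114860614, plus strand), the enzyme that activates ATG8 proteins and ATG12, was at 35.5 and 33.2 TPM in HFD against 33.6 and 32.5 with canagliflozin, and the groups overlapped. Atg5 (chr10:44268358-44364291, plus strand), the partner to which ATG12 is joined, was at 18.9 and 18.2 TPM in the HFD mice and 17.7 and 16.0 TPM in the treated mice. It was lower in both HFD+Cana mice by 9.13% in the mean, and its 95% interval ran from -0.38 to 0.12 on the log2 scale. For Atg7 that interval ran from -0.28 to 0.17, so a change of the size seen in Trp53inp2 lay outside the intervals of both genes.

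Sqstm1 (chr11:50199366-50210827, minus strand) encodes p62, a cargo receptor that is itself degraded by autophagy. It was at 402 and 364 TPM without canagliflozin and 350 and 377 TPM with it, with overlapping groups and a 95% interval from -0.34 to 0.19. Bnip3 (chr7:138890836-138909519, minus strand), a mitophagy receptor on the outer mitochondrial membrane that is induced by low oxygen, was at 806 and 787 TPM in HFD against 649 and 869 with canagliflozin. The HFD+Cana mice were the lowest and the highest of the 4, so Bnip3 had the widest interval of the 10 (-0.52 to 0.35). Over the 8 members other than Trp53inp2 and Map1lc3a, log2 fold changes ran from -0.13 to 0.06 and limma's adjusted p from 0.66 to 0.999.

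The order of the levels was Bnip3 (mean 778 TPM over the 4 mice), Sqstm1 (373), Trp53inp2 (371), Gabarapl1 (291), Map1lc3b (283), Map1lc3a (272), Becn1 (133), Atg7 (33.7), Ulk1 (24.9) and Atg5 (17.7). Bnip3 was the highest in every mouse, and the order from Becn1 to Atg5 was the same in all 4 mice, with no overlap between neighbours. From Sqstm1 to Map1lc3a the 4 values of each gene overlapped with those of the next. Sqstm1, at 350 TPM or more, was still above Gabarapl1, Map1lc3b and Map1lc3a in every mouse. The order among Gabarapl1, Map1lc3b and Map1lc3a differed between mice. Sqstm1 was below Trp53inp2 in both HFD mice and above it in both HFD+Cana mice. Trp53inp2 moved within this middle group. It ranked 2 of 10 in both HFD mice, while the treated mice had it at rank 3 (replicate 1) and rank 6 (replicate 2).

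**Figure D3:**
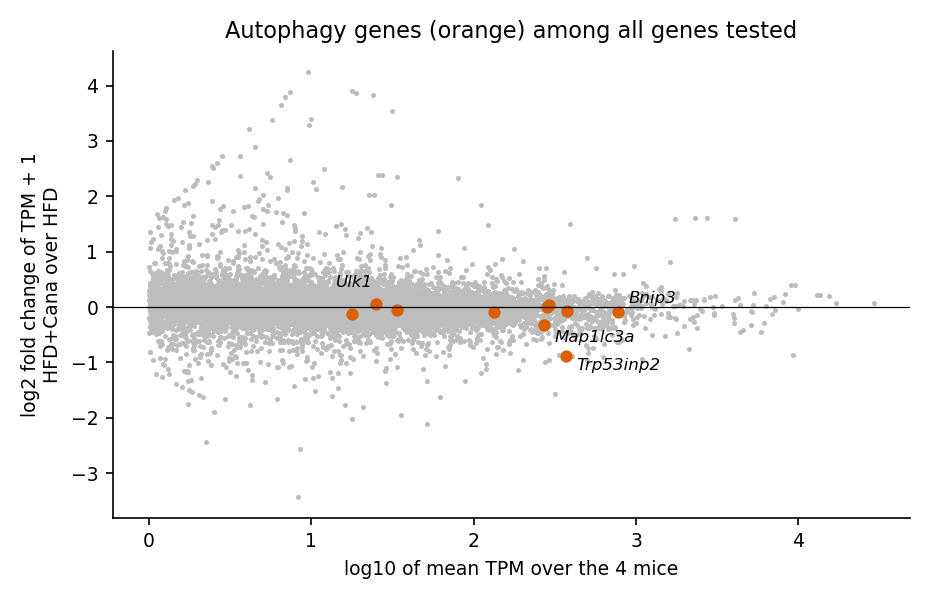
Log10 of the mean TPM over the 4 mice (horizontal) and log2 fold change of TPM + 1, HFD+Cana over HFD (vertical), for the 13788 genes tested (grey) and the 10 autophagy genes (orange). Trp53inp2 at -0.89 lies below the bulk of genes of like level. Map1lc3a at -0.33 lies lower than most of them but not apart, and the other 8 lie near 0.

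Close relatives of the members were measured beside them, and their differences from the members were not tested. Trp53inp1, the paralog of Trp53inp2 and a p53 target, was at 23.5 and 18.9 TPM in the HFD mice and 19.6 and 22.9 TPM in the treated mice, a log2 fold change of 0.01 with overlapping groups. Trp53inp2 RNA was 21.1 and 24.8 times as abundant as Trp53inp1 RNA in HFD and 13.9 and 10.8 times as abundant in HFD+Cana. Bnip3l, the NIX mitophagy receptor, was at 242 and 242 TPM without canagliflozin and 249 and 279 TPM with it. Ulk2, the paralog of Ulk1, was at 49.0 and 47.2 TPM in HFD against 41.5 and 42.5 with canagliflozin. It was lower in both HFD+Cana mice, with a log2 fold change of -0.19 and a 95% interval from -0.39 to 0.01.

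The rest of the pathway was read from 13 lists that held 93 further genes, of which 92 were tested. None passed limma's adjusted threshold. Those with an unadjusted p under 0.05 numbered 8, of which 6 were lower and 2 were higher, beside 5.45% and 5.32% of all genes tested. The median log2 fold change of the 92 was -0.04. Both treated mice lay below both untreated ones in 28 of them and above in 15, beside 19.8% and 24.3% of all genes.

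At the start of the pathway, Atg101, a subunit of the ULK1 kinase complex, was at 71.3 and 57.4 TPM in the HFD mice and 40.7 and 37.9 TPM in the treated mice. Its log2 fold change was -0.69 with an adjusted p of 0.26, and the groups did not overlap. Of the 5 genes of that complex, 3 were lower in both HFD+Cana mice, beside 19.8% of all genes, and 1 (Atg101) had an unadjusted p under 0.05, beside 5.45%. In the class III PI3-kinase complex, the 2 genes of smallest p besides the member Becn1 were Uvrag, a subunit that acts in endosome and autophagosome maturation (33.3 and 33.1 TPM in HFD, 27.2 and 25.1 in HFD+Cana), and Nrbf2, whose groups overlapped (34.8 and 25.6 against 27.3 and 25.8 TPM). The complex as a whole was at a median of -0.03 over its 8 genes, Becn1 included, so Uvrag at -0.34 stood apart from most of its partners.

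Among the ATG9, ATG2 and WIPI proteins, which act on the growing membrane and its lipids, the 2 genes of smallest p differed in opposite directions. Wipi2, which recruits the conjugation machinery, was at 35.8 and 36.4 TPM without canagliflozin and 30.4 and 30.2 TPM with it (log2 fold change -0.24). Vmp1, a lipid scramblase of the endoplasmic reticulum, was at 112 and 97.1 TPM in HFD against 133 and 126 with canagliflozin (0.31). Neither passed, and the 9 genes tested in this list had a median of -0.06. In the conjugation machinery, Atg12, which is joined to ATG5, was at 60.3 and 52.3 TPM in the HFD mice and 43.9 and 41.7 TPM in the treated mice (-0.38), while Atg4c, a protease that trims ATG8 proteins, had a log2 fold change of 0.17. The median of the 11 conjugation genes was 0.00.

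Cargo receptors, mitophagy and ER-phagy genes had medians of -0.05, -0.05 and -0.01. Optn, a ubiquitin-binding receptor, had a log2 fold change of -0.28, and Ncoa4, the receptor for ferritin, one of 0.23. Bcl2l13, a mitochondrial receptor, was the mitophagy gene of smallest p, at 35.3 and 33.9 TPM without canagliflozin and 26.5 and 26.2 TPM with it (-0.38). Fkbp8, another receptor on mitochondria, was at -0.14. The ER-phagy receptors Rtn3 and Sec62 were at -0.16 and 0.20. Of all genes in these lists, the members Sqstm1 and Bnip3 included, only Bcl2l13 had an unadjusted p under 0.05.

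In the late steps no gene had an unadjusted p under 0.05. Of 10 genes of autophagosome-lysosome fusion, 5 were lower in both HFD+Cana mice, beside 19.8% of all genes, with Plekhm1 (-0.28) and Tecpr1 (-0.25), tethering factors, the 2 of smallest p. The 8 lysosome membrane genes had a median of -0.02, and Lamp2 and Tpcn1, the 2 of smallest p, were at 0.09 and -0.10. Transcription factors known to drive or restrain autophagy genes had a median of 0.02 over 7 genes, with Foxo1 at -0.19 and Zkscan3, a repressor, at 0.14. Of 15 genes of mTORC1 and AMPK control, Sesn2, a leucine sensor that restrains mTORC1, was at 24.5 and 20.3 TPM in HFD against 15.7 and 17.1 with canagliflozin (-0.42). Prkaa1, a catalytic subunit of AMPK, was at 17.9 and 19.1 TPM in the HFD mice and 22.1 and 22.3 TPM in the treated mice (0.25). Both had groups that did not overlap, and neither passed the adjusted threshold.

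**Figure D4:**
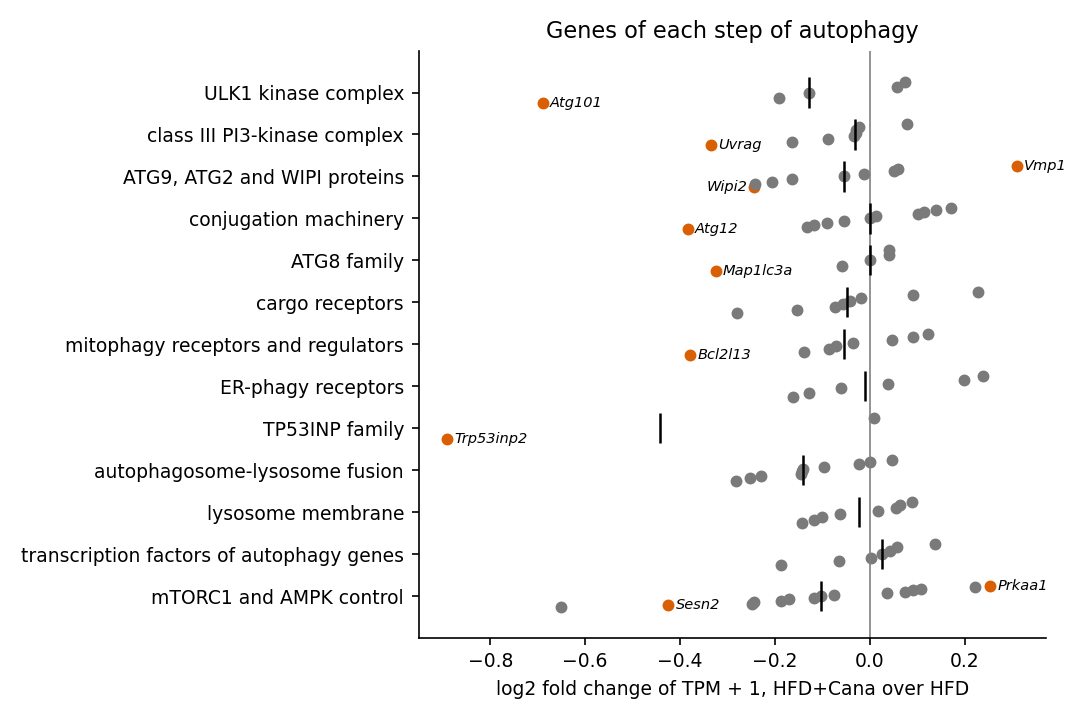
Log2 fold change of TPM + 1 (HFD+Cana over HFD) of each tested gene in 13 lists of autophagy steps; orange points with names have an unadjusted p under 0.05, black bars are list medians, and genes of the 10 members stand in their lists. The medians lie between -0.14 and 0.02 except in the TP53INP family, which has only 2 genes, Trp53inp2 and Trp53inp1.

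Markers of other cells moved with some of these values. Over all genes tested, both HFD+Cana mice lay below both HFD mice in 19.8% and above them in 24.3%. The 9 mesothelial markers were all higher in both HFD+Cana mice (summed TPM 48.2 and 34.3 in HFD, 157 and 277 in HFD+Cana), and so were the 9 hepatocyte markers. Of the 5 endothelial markers, 4 were lower in both HFD+Cana mice (580 and 580 TPM summed in HFD, 479 and 509 in HFD+Cana). Their part in the lower Trp53inp2 and Map1lc3a was not tested. In the adipocyte list, 3 of 10 markers were lower in both HFD+Cana mice (Plin1, Cidec and Lep, the leptin gene, with log2 fold changes of -0.34, -0.32 and -0.75), Cfd, the adipsin gene, was higher at 1.59, and the other 6 overlapped. The 8 macrophage markers were higher in replicate 1 of each group (2671 and 3360 TPM summed) than in replicate 2 (1935 and 1978 TPM), and 1 of the 8, Cd163, was separated between the groups. Stromal progenitor markers summed to 1981 and 1944 TPM without canagliflozin and 2837 and 2089 TPM with it, with 3 of 6 higher in both HFD+Cana mice. T cell markers summed to 13.4 and 14.5 against 18.7 and 17.9 TPM, mostly through Cd2 (6.48 and 6.36 against 10.5 and 10.1 TPM). Lck was also higher in both HFD+Cana mice (2.85 and 2.75 against 3.17 and 3.31 TPM), Cd3e and Cd3g overlapped, and Cd3d was not tested. Of the rest, red blood cell markers summed to 1756 and 5940 against 14391 and 6673 TPM, with 4 of 5 higher in both HFD+Cana mice. Epididymis and testis markers summed to 0.36 and 14.3 against 6.63 and 10.5 TPM. Since TPM sums to a fixed total, more RNA of one kind lowers the TPM of the rest. The part of this in the values of the members was not tested.

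Skeletal muscle, in which Trp53inp2 is also highly expressed, was measured directly by its markers. Ckm and Myh4 were at 11.4 and 8.07 TPM in HFD replicate 2 and at 0.22 TPM or less in the other 3 mice. The 10 markers summed to 281 and 332 TPM in HFD against 164 and 249 with canagliflozin. Most of each sum was Acta1 (220 and 195 against 99.3 and 187 TPM), which did not follow Ckm and Myh4. Of the 9 genes tested, 3 (Acta1, Myh4 and Pvalb) were lower in both HFD+Cana mice, beside 19.8% of all genes. For Myh4 this rests on values near 0, with 0.022 TPM in HFD replicate 1 against 0.021 and 0 TPM in HFD+Cana. Acta1, like Trp53inp2, was higher in HFD replicate 1, where Ckm was listed at 0, than in HFD replicate 2. Pvalb, another muscle marker, stood at 15.3 and 16.0 TPM in the HFD mice and at 7.51 and 4.84 TPM in the treated mice. Without HFD replicate 2 the log2 fold change of Trp53inp2 was -0.93. The part of muscle RNA in the difference of Trp53inp2 was not tested.

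**Figure D5:**
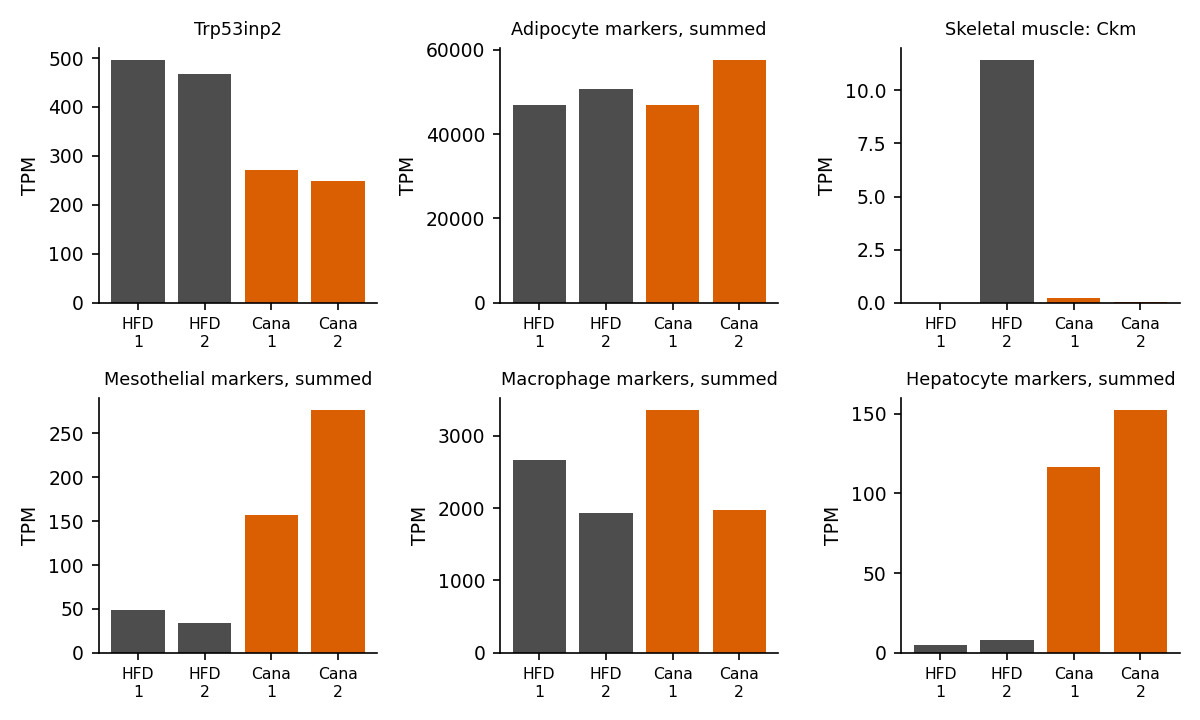
TPM per mouse (bars from 0; grey HFD, orange HFD+Cana) of Trp53inp2, of Ckm and of the summed adipocyte, mesothelial, macrophage and hepatocyte markers. Trp53inp2 is lower in both HFD+Cana mice, the mesothelial and hepatocyte sums are higher in both, and Ckm is high in HFD replicate 2 alone. Ckm is 1 of the 10 skeletal muscle markers, whose sum is not drawn (281 and 332 TPM in HFD, 164 and 249 in HFD+Cana).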

How the data were processed

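Stranded libraries of polyadenylated gWAT RNA were sequenced for 2 mice per group. Reads had been run through nf-core/rnaseq 3.12.0 (nextflow 23.10.0), and the authors deposited Salmon's TPM for each gene, which sum to 1000000 per sample. GRCm38 (mm10) and R 4.3.2 stand in the submitters' processing notes. The sources used here do not give the annotation release. Of 45706 gene IDs, 45143 were found in GENCODE M21 (GRCm38), which gave names and positions, and 27 names turned into dates were restored. Depth cannot be read from TPM, and no counting interval was computed.

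Genes averaging 1 TPM or more (13788) were kept. Their log2(TPM + 1) entered limma 3.58.1 (R 4.3.3; lmFit, then eBayes with trend) with group as the only term, and p-values were adjusted by Benjamini-Hochberg. A pseudocount of 1 and a threshold of 0.05 were used. Lists are described by counts and medians, and no set test or count test was run. The labels do not say how the mice of a group were housed. The p-values measure the spread between these mice only, and eBayes combines each gene's own spread with that of the other genes. The moderated test had 4.637 total degrees of freedom. A single-gene exact permutation test of 2 against 2 cannot go below 0.333 (two-sided).

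The members and lists were chosen with earlier results of these data known. Named were all 10 members, the 2 tested genes of smallest p in each other autophagy list, the remaining ATG8 genes, and Bnip3l, Ulk2 and Trp53inp1. Marker genes and neighbouring genes named singly were chosen after their values were seen. Alternatives were pseudocounts of 0.1 and 5, no filter, a mean of at least 5 TPM, quantile and median-of-ratios scaling, TPM without mitochondrial DNA genes, a robust eBayes and one without trend, a replicate block, and leaving out each mouse. Scaling to the summed adipocyte markers, Cfd included, was added after the data had been seen. Promoter sequences are RefSeq's (GRCm38.p6). Tables and plots were made in Python 3.11.15 with pandas 2.3.3 and matplotlib 3.10.9.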

Additional observations from a re-analysis of the deposited data

How the results depend on the processing

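Trp53inp2, Map1lc3a, Becn1, Atg5, Atg7 and Sqstm1 kept a log2 fold change below 0 under all 15 alternatives, and no member passed the adjusted threshold except Trp53inp2 (-0.98, adjusted p 0.0499 in limma) under scaling to the adipocyte markers. That scaling called 90 genes higher and 42 lower, 1 member, left 1 member at an unadjusted p under 0.05, gave a member median of -0.17, and turned Ulk1 (-0.033), Map1lc3b (-0.093) and Gabarapl1 (-0.054) below 0. The unadjusted p of Trp53inp2 in limma was 0.00047 with that scaling and 0.00034 in the main fit. Under median-of-ratios scaling Map1lc3b was at -0.024 and the member median at -0.10, and under quantile normalization the member median was -0.051. Against 6 genes higher and 0 lower over the whole table, 0 were higher with a pseudocount of 0.1, without a filter, with a mean of at least 5 TPM and under quantile normalization, 2 with a pseudocount of 5, and 13 in eBayes without trend. Leaving out 1 mouse in turn gave 0 genes higher each time, 1 to 2 members at an unadjusted p under 0.05, 5 to 9 members whose groups did not overlap (a lone mouse overlaps less readily) and a member median of -0.11 to -0.038. The sign then turned for Ulk1 (-0.054 to 0.17), Map1lc3b (-0.10 to 0.10), Gabarapl1 (-0.12 to 0.20) and Bnip3 (-0.30 to 0.13). The lone mouse of a group was assumed to vary like the others. The cause of these shifts was not tested.

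The replicate number as a block gave 2 genes higher and 0 lower, and Trp53inp2 at -0.89 with an adjusted p of 0.11. No member's call differed. With 2 pairs, the deviations of same-numbered mice correlated at 0.178 over 13788 genes, and the samples share only a number.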

Other observations

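The 2 members of smallest p are near neighbours. On GRCm38, Map1lc3a ends 102985 bases before Trp53inp2 starts on the same strand of chromosome 2, and Pigu, which encodes a subunit of the GPI transamidase, is the only tested gene between them. Pigu was at 31.7 and 27.0 TPM in the HFD mice and 27.97 and 24.4 TPM in the treated mice, with overlapping groups. Within 250000 bases of this pair lay 9 tested genes (Pigu included). Both treated mice lay below both HFD mice in 2 of these and above them in 3, beside 19.8% and 24.3% of all genes. The lower ones were Ggt7 (2.80 and 2.13 TPM in HFD, 1.86 and 1.52 in HFD+Cana) and Acss2, a cytosolic enzyme that makes acetyl-CoA from acetate (69.9 and 63.8 TPM in HFD, 50.01 and 43.2 in HFD+Cana). Ahcy, which breaks down S-adenosylhomocysteine, was higher (25.4 and 24.8 TPM in HFD, 38.2 and 47.5 in HFD+Cana). This region was looked at after the values of the pair had been seen, and none of these genes passed the adjusted threshold in limma.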
